A study of Rattus norvegicus with 6 samples.

Results

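The genes described here are 4 neurotrophic factors, Bdnf, Ntf3, Gdnf and Cntf, and 4 receptors, Ntrk2, Ntrk3, Ngfr and Ret. Their transcripts were measured in the rat spinal cord near thoracic segment 8. Members were chosen by gene symbol, as every probe set that the array's annotation gives to 1 of the 8 genes and to no other gene. This gave 20 probe sets of 8740 on the array, with 7 for Bdnf, 3 for Ret, 2 each for Ntf3, Ntrk2, Ntrk3 and Ngfr, and 1 each for Gdnf and Cntf. The study set 3 samples of the injury epicenter, taken on day 35 after contusion (a blunt blow to the cord), against 3 samples from the same position of uninjured animals, with 1 one-colour array per sample. Strain, sex and age are not given in the sources used here. Since no day and no sham operation are named for the uninjured animals, surgery and elapsed time cannot be told apart from the contusion. Nothing states that the arrays stand for separate animals, and the p-values cover the spread among these arrays alone, part of which may be technical.

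Neurotrophic factors are proteins that keep neurons and glia alive and shape their growth through receptors on the cell surface. BDNF acts on the receptor tyrosine kinase TrkB, which Ntrk2 encodes, and neurotrophin-3 acts mainly on TrkC, which Ntrk3 encodes. All neurotrophins can also bind the p75 receptor encoded by Ngfr, and GDNF signals through the kinase RET together with a co-receptor. CNTF is a cytokine of Schwann cells and astrocytes that signals through none of these receptors. Ntrk2 gives rise both to a full-length kinase and to truncated receptors without the kinase, and astrocytes make much of the truncated form.

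Ntrk2 was the member that differed most between the groups, with a signal 2.45-fold lower at the contused epicenter (log2 change -1.29, SE 0.22, n = 3 arrays per group). In a sample of whole tissue, fewer cells of a type and less RNA per cell cannot be told apart. One Bdnf probe set of 7, close to the detection floor, was 1.42-fold lower. The other tested probe sets, which read Bdnf, Ntf3, Gdnf, Cntf, Ntrk3, Ngfr and Ret, did not pass the threshold. The floor is a signal of 61.6, the 25th percentile of all values, and lower values were set to it before the log2 transform. Testing required a signal above it on 3 or more of the 6 arrays. In all, 13 of the 20 member probe sets were tested, with at least 1 for each of the 8 genes. The threshold was a Benjamini-Hochberg adjusted p of 0.05 in limma over all 6705 tested probe sets. Of the 13, 2 were lower and 0 were higher, or 15.4%, against a background of 17.4% of all tested probe sets called in either direction (9.59% lower and 7.79% higher). At an unadjusted p of 0.05 the members' counts were the same, 2 lower and 0 higher. The share of members called is thus near that of the array as a whole. The 2 groups did not overlap in 2 of the 13, both lower, against 34.8% of all tested probe sets (18.2% lower and 16.6% higher). The median log2 change was 0.18 over the 13 members and -0.005 over all tested probe sets. The 7 probe sets that were not tested lay below the floor on all 6 arrays, with signals from 2.07 to 53.0.

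**Figure D1:**
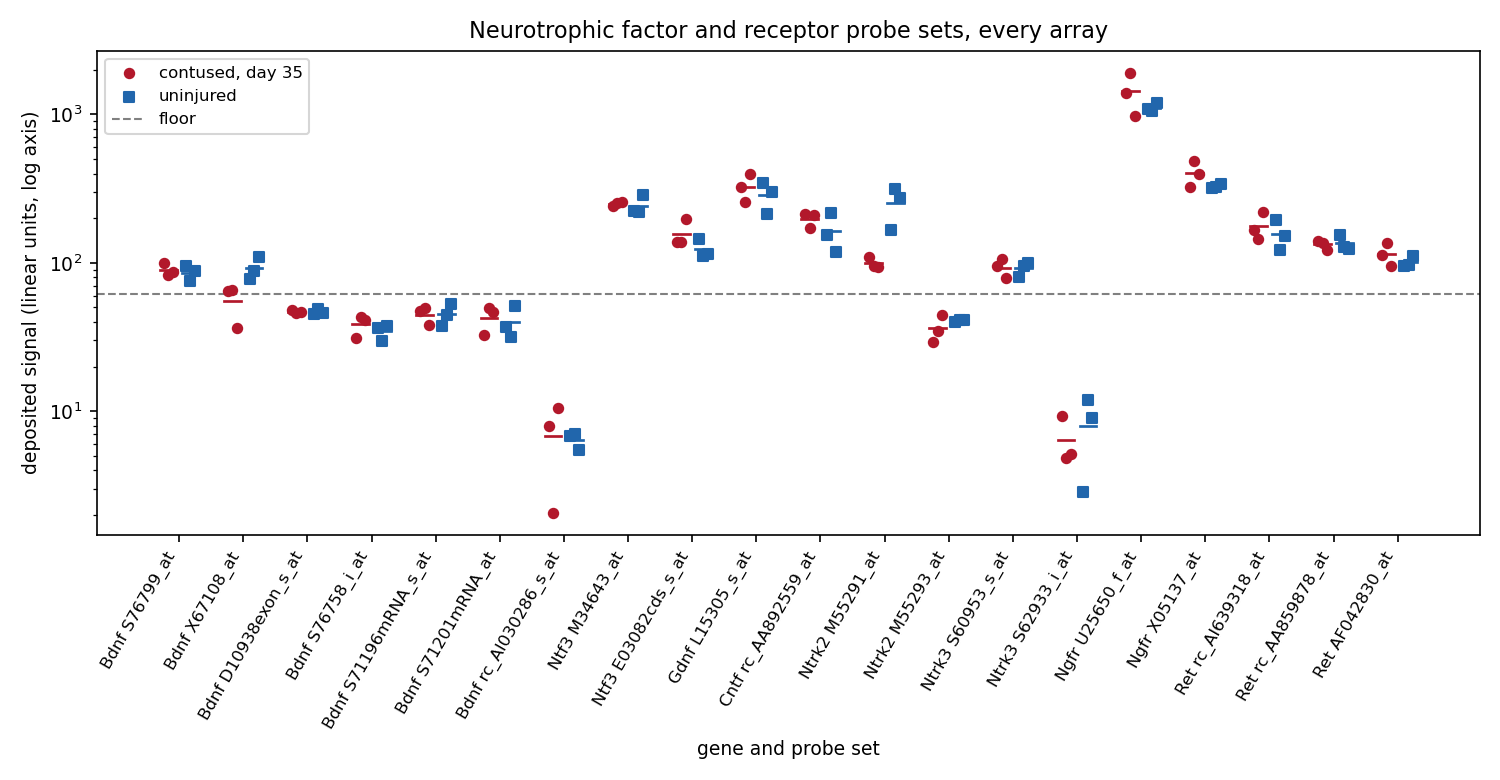
Deposited signal (linear units on a log axis) of the 20 probe sets on every array, contused arrays as red circles and uninjured arrays as blue squares in replicate order from left to right, with bars at the group means and a dashed line at the floor of 61.6. The 3 contused arrays of Ntrk2 M55291_at lie between 94.4 and 109, below its 3 uninjured arrays, while the groups overlap for most other probe sets.

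Among the ligands, Bdnf had 2 tested probe sets of 7, and these did not give the same result. BDNF is the main ligand of TrkB and is made by neurons and, after injury, by other cells too. X67108_at gave 64.7, 66.0 and 36.2 on the contused arrays, against 78.0, 88.4 and 109 on the uninjured arrays. All contused arrays lay below all uninjured arrays, and 1 contused array was below the floor. The log2 change was -0.51 (SE 0.14, 95% interval -0.81 to -0.20, adjusted p = 0.0292 in limma). The call of this probe set was lost when contused array 1, 2 or 3 or uninjured array 2 or 3 was left out, with an adjusted p of 0.0675 to 0.115, and when the 10th percentile served as floor (log2 change -0.76, adjusted p = 0.0575) or no filter was set (0.0988). The second tested probe set, S76799_at, gave 100.01, 83.1 and 86.8 on the contused arrays and 95.4, 74.9 and 87.6 on the uninjured arrays. Its groups overlapped, with a log2 change of 0.07 (95% interval -0.24 to 0.37, adjusted p = 0.789 in limma). The other 5 Bdnf probe sets, D10938exon_s_at, S71196mRNA_s_at, S71201mRNA_at, S76758_i_at and rc_AI030286_s_at, stayed below the floor in both groups. They give no measure of a change.

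Bdnf is transcribed from several start sites, each with its own first exon, and the sources used here do not say which of its transcripts each probe set reads. RefSeq's promoter table (GRCr8) holds 6 windows for Bdnf, each from 250 bases before to 50 bases after a start. The window below is shown because it is the only 1 of the 6 with CGTCA, the half-site of the cAMP response element to which the transcription factor CREB binds. On the opposite strand the half-site reads TGACG. The half-site, in capitals, begins 35 bases before the start. The whole window lies on the plus strand at chr3:116637608-116637907.
Bdnf promoter window: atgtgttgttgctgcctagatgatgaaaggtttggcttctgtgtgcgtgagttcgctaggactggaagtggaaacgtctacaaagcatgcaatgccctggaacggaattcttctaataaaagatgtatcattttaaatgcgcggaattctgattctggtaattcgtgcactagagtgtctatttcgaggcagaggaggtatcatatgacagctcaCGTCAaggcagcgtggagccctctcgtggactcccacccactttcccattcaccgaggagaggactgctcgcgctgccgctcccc
The same 5 letters, searched on both strands, are found in 21.2% of the 33469 RefSeq promoter windows of this length, so a match is a description of the window and no evidence of a site. Windows were found for 5 of the 8 genes: Bdnf, Ntf3, Gdnf, Cntf and Ret. Over these genes, 2 of 12 windows (16.7%) hold the half-site. They are the window shown and the only window of Gdnf, where it begins 49 bases before the start.

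Neither probe set of Ntf3, the neurotrophin-3 gene, passed the threshold. M34643_at gave 240, 253 and 258 on the contused arrays, against 225, 219 and 285 on the uninjured arrays (log2 change 0.06, 95% interval -0.28 to 0.39). E03082cds_s_at gave 138, 138 and 196 on the contused arrays and 145, 112 and 115 on the uninjured arrays (log2 change 0.33, 95% interval -0.07 to 0.74, adjusted p = 0.25 in limma). In both, the ranges of the groups overlapped, and on E03082cds_s_at contused array 3 stood above the other arrays.

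Gdnf encodes the glial cell line-derived factor, a survival factor for motor and sensory neurons. L15305_s_at gave 326, 256 and 396 on the contused arrays, against 347, 214 and 300 on the uninjured arrays. The arrays of each group spread widely and overlapped, with a log2 change of 0.19 (95% interval -0.28 to 0.66, adjusted p = 0.606 in limma). Cntf, read by rc_AA892559_at, gave 213, 172 and 212 on the contused arrays and 154, 217 and 119 on the uninjured arrays. Uninjured array 2 was the highest of all 6, and the log2 change of 0.32 had a 95% interval from -0.15 to 0.79 (adjusted p = 0.351 in limma). The intervals of both genes hold 0 and also rises larger than the fall of Bdnf X67108_at.

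Among the receptors, Ntrk2 was lower on every contused array. M55291_at gave 109, 95.1 and 94.4 on the contused arrays, against 167, 313 and 275 on the uninjured arrays. The groups did not overlap, and the contused arrays lay close together while uninjured array 1 was well below uninjured arrays 2 and 3. The means were 99.6 ± 8.45 in contused cord and 252 ± 75.5 in uninjured cord (SD, n = 3 arrays each). The log2 change was -1.29 (SE 0.22, 95% interval -1.78 to -0.80, adjusted p = 0.00267 in limma), and 62 of the 6705 tested probe sets had a larger fall. The call held when any 1 array was left out (adjusted p of 0.000701 to 0.0175). It ended, with the same log2 change, when probe sets were no longer filtered for low signal (adjusted p = 0.0568), and the log2 change was -0.79 with an offset of 100 added in place of the floor (adjusted p = 0.0028).

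The second Ntrk2 probe set, M55293_at, gave 29.3, 34.9 and 44.8 on the contused arrays and 39.9, 41.1 and 41.3 on the uninjured arrays. All 6 values lay below the floor, so it bears neither for nor against the fall read by M55291_at. The sources used here do not say whether either probe set reads full-length TrkB, its truncated forms or both.

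Ntrk3, the TrkC gene, did not pass on its 1 tested probe set. S60953_s_at gave 94.5, 105 and 78.9 on the contused arrays, against 80.0, 95.4 and 100.2 on the uninjured arrays (log2 change 0.01, 95% interval -0.32 to 0.35, adjusted p = 0.966 in limma). The uninjured signals of S60953_s_at lie too close above the floor for a fall as large as that of Ntrk2 M55291_at to be read. Its interval is therefore not set against that of Ntrk2. All contused values of S60953_s_at lay above the floor, so the floor did not shape its log2 change of 0.01. The second Ntrk3 probe set, S62933_i_at, stayed below the floor, with 9.31, 4.81 and 5.11 on the contused arrays and 2.87, 11.9 and 8.97 on the uninjured arrays.

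Ngfr, which encodes the p75 receptor, had 2 probe sets, both with a higher mean in contused cord that did not pass the threshold. U25650_f_at gave 1397, 1911 and 977 on the contused arrays, against 1095, 1047 and 1193 on the uninjured arrays (log2 change 0.31, 95% interval -0.15 to 0.77, adjusted p = 0.351 in limma). The contused arrays reached both the highest and the lowest value, and their SD was 468, against 74.1 in uninjured cord. X05137_at gave 324, 489 and 399 on the contused arrays and 320, 324 and 341 on the uninjured arrays (log2 change 0.28, 95% interval -0.08 to 0.64, adjusted p = 0.287 in limma). Contused array 2 was the highest of all on both probe sets, while contused array 3 was the lowest on U25650_f_at and the second highest on X05137_at. In this array's naming, _f and _s mark probe sets whose probes may also match related sequences. Without contused array 3, U25650_f_at was called higher (log2 change 0.56, adjusted p = 0.0341), so a single array decides whether it passes.

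Ret, the receptor kinase for GDNF and its relatives, had 3 probe sets and 0 calls. AF042830_at gave 113, 136 and 94.9 on the contused arrays, against 94.7, 96.9 and 110 on the uninjured arrays (log2 change 0.18, 95% interval -0.18 to 0.53, adjusted p = 0.511 in limma). The brightest, rc_AI639318_at, gave 167, 144 and 220 on the contused arrays and 196, 123 and 152 on the uninjured arrays (log2 change 0.18, 95% interval -0.28 to 0.65). On rc_AA859878_at the values were 141, 136 and 121 on the contused arrays and 155, 128 and 124 on the uninjured arrays (log2 change -0.03, 95% interval -0.36 to 0.30). The groups overlapped on all 3 probe sets.

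**Figure D2:**
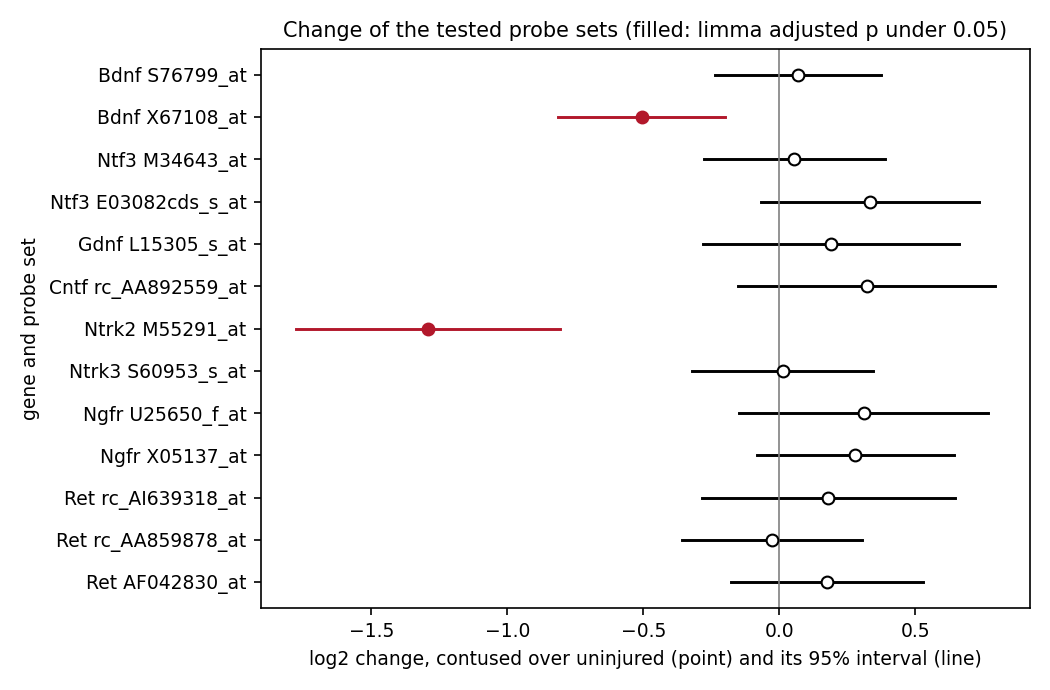
Log2 change, contused over uninjured, of the 13 tested probe sets (points) with the 95% interval from limma (lines). Filled red points passed an adjusted p of 0.05: Ntrk2 M55291_at at -1.29 and Bdnf X67108_at at -0.51, while the intervals of the other 11 include 0.

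Of the 11 probe sets that did not pass, 10 had a log2 change above 0, up to 0.33. Over all 6705 tested probe sets, 3313 had a log2 change above 0. Several of the 11 read the same gene, and all were read on the same arrays, so their signs are not independent. For 6 of the 11 the sign was the same under every alternative setting in which they were tested, 14 for Ret AF042830_at, which was not tested with the 50th percentile as floor, and 15 for the others.

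The other genes of the same pathways were drawn from a list of 73, arranged by role, of which 46 were on the array and 43 were tested, each by its brightest tested probe set. Of these, 4 were higher and 3 lower, or 16.3%, against 16.9% of all 3955 genes tested (9.91% lower and 7% higher). The median log2 change was 0.08 over the list and -0.02 over all genes, so neither measure set the list far from the other genes.

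Of the 3 other ligands 0 passed in limma by their brightest probe set, and 0 of these probe sets had an unadjusted p under 0.05. The brightest, Ntf4 (neurotrophin-4, which also binds TrkB), had a log2 change of 0.08 (95% interval -0.31 to 0.48). The dimmer Ntf4 probe set Y07659exon_at had a log2 change of 0.32 and did not pass (limma unadjusted p = 0.0446, adjusted p = 0.153). Of 6 other receptors 0 passed by their brightest probe set in limma, and 1 was higher at an unadjusted p of 0.05 (Il6st, the signalling chain of the CNTF receptor, log2 change 0.63, adjusted p = 0.104). Gfra1 encodes the co-receptor through which GDNF engages RET. Its brighter probe set U97142_at gave 434 ± 82.4 in contused cord and 349 ± 45.0 in uninjured cord (SD, n = 3 arrays each), a log2 change of 0.30 (adjusted p = 0.264 in limma). Its dimmer probe set rc_AI070721_s_at gave 90.0, 81.4 and 85.0 on the contused arrays, against 47.5, 49.1 and 62.1 on the uninjured arrays, of which 1 was above the floor. It passed, with a log2 change of 0.47 (adjusted p = 0.0119, and 0.0532 without uninjured array 3), so the probe sets of Gfra1 disagree on the call.

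Of 4 genes for processing and trafficking, 2 fell and 1 rose. Pcsk2, a convertase that cuts prohormones in neurons and endocrine cells, gave 88.7, 94.9 and 79.2 on the contused arrays, against 132, 209 and 188 on the uninjured arrays. Its log2 change was -0.99 (SE 0.18, adjusted p = 0.00449 in limma, and 0.0535 when the 50th percentile served as floor). Bex3, whose protein binds the p75 receptor, gave 823, 755 and 756 on the contused arrays and 1193, 1429 and 1403 on the uninjured arrays. Its log2 change was -0.78 (SE 0.12, adjusted p = 0.00169 in limma), and its second probe set fell too, by 0.90 on the log2 scale. The call of Bex3 held on both probe sets when any 1 array was left out. Plat encodes the tissue plasminogen activator, which releases plasmin, a protease that can cut pro-BDNF. It was 1.47-fold higher (adjusted p = 0.0414 in limma). That call was lost without contused array 2 or 3 or without any 1 of the uninjured arrays (up to 0.116).

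Of 20 adaptors and kinases, 2 rose and 0 fell. The kinase gene Akt2 was 1.43-fold higher (adjusted p = 0.0198 in limma), with 150, 153 and 149 on the contused arrays against 103, 111 and 103 on the uninjured arrays. Its dimmer probe set rc_AI105076_s_at did not pass (log2 change 0.29, adjusted p = 0.154 in limma). Rhoa, a small GTPase that p75 can act on, was 1.73-fold higher (adjusted p = 0.0281 in limma). Akt2 lost its call without contused array 2 or uninjured array 1 or 3 (up to 0.0922), and Rhoa without contused array 1, 2 or 3 or uninjured array 2 or 3 (up to 0.0996). Sos1, the exchange factor that links receptor kinases to Ras, did not pass on its brighter probe set (log2 change -0.39, adjusted p = 0.13). It fell on its dimmer one (log2 change -0.79, adjusted p = 0.011, but 0.059 without contused array 2 and 0.249 when the 50th percentile served as floor).

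Among 10 nuclear targets, 1 rose and 1 fell. Nfkbia, the inhibitor of NF-kB, was 1.74-fold higher (131 ± 27.8 in contused cord and 74.6 ± 10.7 in uninjured cord, SD, n = 3 arrays each, limma adjusted p = 0.0117). Npy, a neuropeptide gene that BDNF can induce, gave 210, 187 and 199 on the contused arrays, against 315, 300.0 and 290 on the uninjured arrays (log2 change -0.60, adjusted p = 0.0111 in limma, and 0.0556 without contused array 2). Fos, an immediate early gene, did not pass on its brightest probe set (log2 change 0.12, adjusted p = 0.65), whereas X06769cds_g_at of the same gene gave 236, 325 and 258 on the contused arrays and 102, 125 and 123 on the uninjured arrays (log2 change 1.22, adjusted p = 0.000735 in limma). The dimmest Fos probe set, X06769cds_at, passed too (log2 change 0.65, adjusted p = 0.0169 in limma). That call was lost without contused array 2 or any 1 of the uninjured arrays (adjusted p of 0.0519 to 0.0647), and without the filter (0.0792). Without contused array 2, 3 of the 43 pathway genes passed, and without uninjured array 3, 4 passed. Counting a gene if any of its probe sets passed gave 10.

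**Figure D3:**
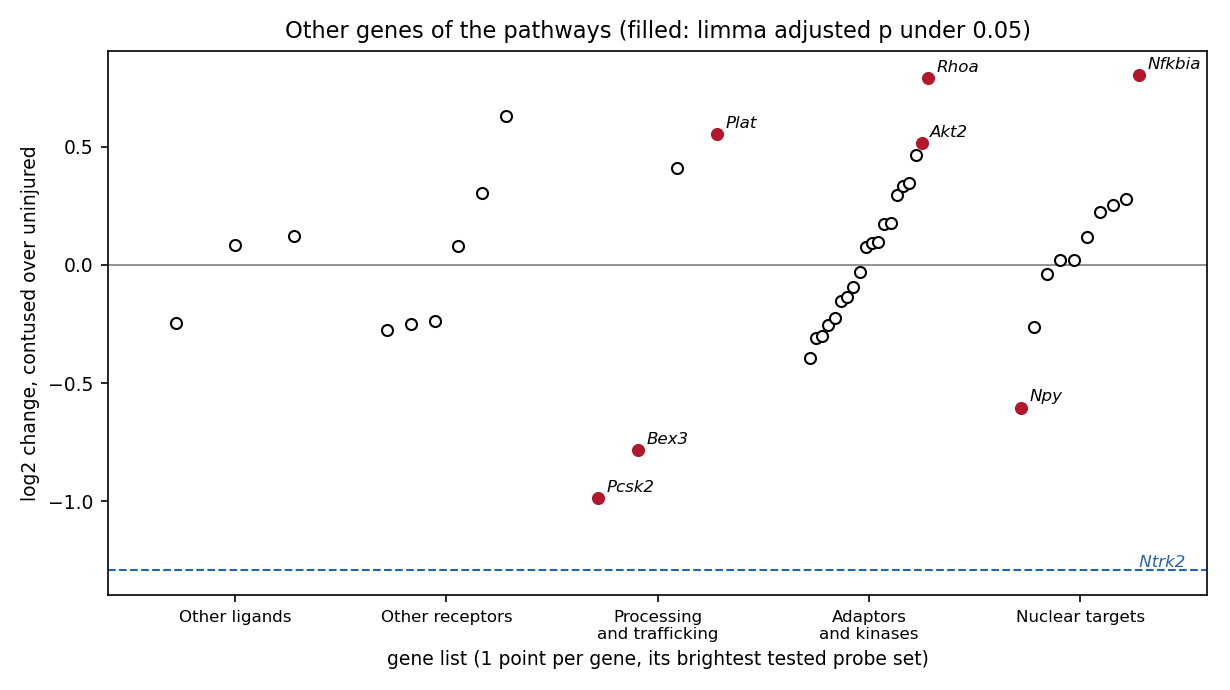
Log2 change, contused over uninjured, of the 43 tested pathway genes by role (1 point per gene, its brightest tested probe set), with filled red points for limma adjusted p under 0.05 and a dashed line at the -1.29 of Ntrk2. Filled points are Plat, Rhoa, Akt2 and Nfkbia above 0 and Pcsk2, Bex3 and Npy below 0, all nearer to 0 than the Ntrk2 line.

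The signal of Ntrk2 fell in samples in which neuron markers fell too. All 7 tested neuron markers were lower (Thy1, Snap25, Nefh, Syp, Nefl, Uchl1 and Nefm), with log2 changes from -1.77 to -0.84, and the -1.29 of Ntrk2 lies within that range. Summed over 8 neuron genes, the signal was 7598 to 7824 in contused cord, against 14449 to 17050 in uninjured cord. Syt1 was below the floor on all arrays. By brightest probe set, 9.91% of all 3955 genes tested were lower and 7% higher, or 16.9% in either direction. Of 8 astrocyte markers 1 was higher (Gja1, log2 change 0.66) and 0 lower, or 12.5%, near the share of all genes. Their sum was 11267 to 12100 in contused cord and 11172 to 12040 in uninjured cord. Oligodendrocyte markers were lower in 5 of 8 cases, with sums of 13544 to 14616 in contused cord against 16600 to 17679 in uninjured cord. The part of neuron or oligodendrocyte markers in the fall of Ntrk2 was not tested.

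Beside Ngfr and Cntf, which Schwann cells make, 0 of the 8 tested genes listed as Schwann cell markers passed in limma. Their sums ran from 5017 to 5363 in contused cord and from 4473 to 4845 in uninjured cord. At an unadjusted p of 0.05, 2 of the 8 were higher, Pmp22 and Prx. The nearest to the threshold was the peripheral myelin gene Pmp22 (log2 change 0.40, adjusted p = 0.0507 in limma). Prx had a log2 change of 0.51 (adjusted p = 0.106 in limma). The list also holds Gap43, L1cam, Ncam1 and Sox10, with log2 changes of -0.22 to 0.07. Set against the 9.91% lower and 7% higher of all genes tested, 2 of 5 motor neuron markers were lower (Ache and Slc18a3). Their sums were 1047 to 1194 in contused cord and 1522 to 1713 in uninjured cord, while Ret, which motor neurons make, had 0 calls. Microglia and macrophage markers were higher in 11 of 12 cases, with sums of 11546 to 12132 in contused cord and 3888 to 4921 in uninjured cord. Fibroblast and meningeal markers were higher in 4 of 7 cases, and their sums spread from 5747 to 7671 in contused cord and from 2340 to 5025 in uninjured cord. The 4 tested endothelial markers had 0 calls in limma and 0 at an unadjusted p of 0.05, and their list summed to 502 to 533 in contused cord and 525 to 593 in uninjured cord.

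**Figure D4:**
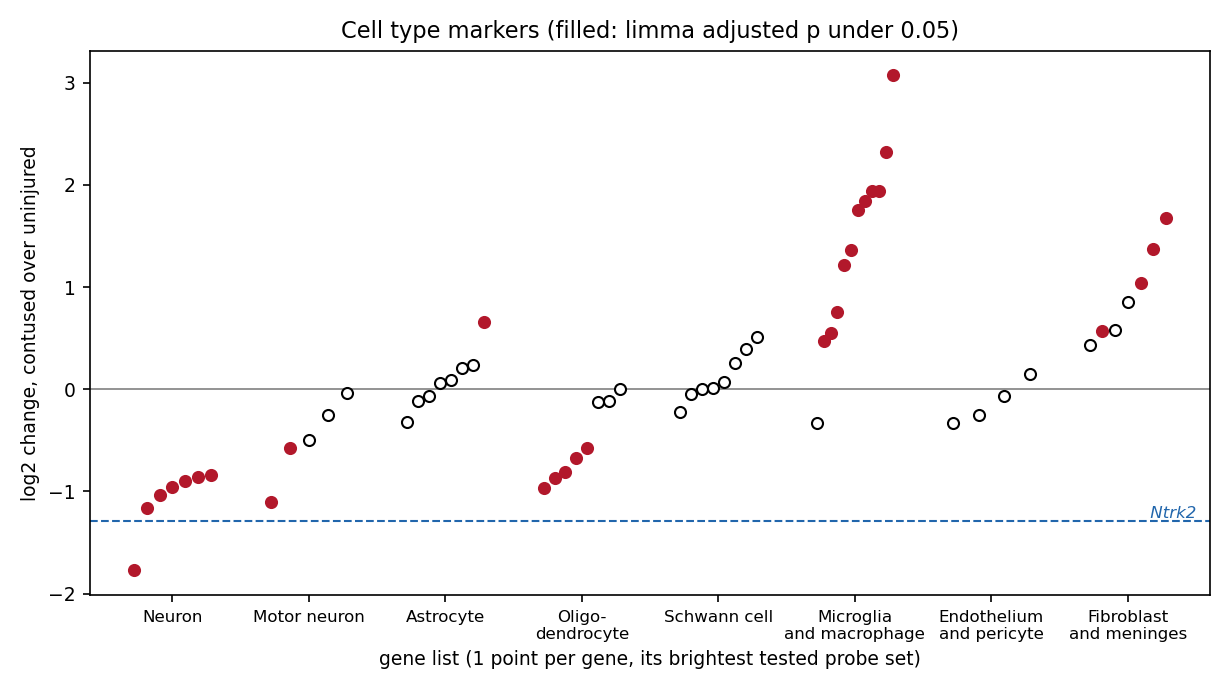
Log2 change, contused over uninjured, of tested cell type markers (1 point per gene, its brightest tested probe set), with filled red points for limma adjusted p under 0.05 and a dashed line at the -1.29 of Ntrk2. The line runs inside the range of the neuron markers (-1.77 to -0.84) and below every marker of all the other lists, motor neuron markers included.

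Across the 6 arrays, the genes whose log2 signal followed that of Ntrk2 M55291_at most closely were the adenylate cyclase genes Adcy2 (Pearson r = 0.996) and Adcy3 (r = 0.996) and Asb1 (r = 0.995). Of these, Asb1 alone passed the threshold (log2 change -0.60, adjusted p = 0.0273 in limma), against -0.40 and -0.42 for Adcy2 and Adcy3. For Bdnf X67108_at they were the glutamate receptor gene Grm2 (r = 0.993), the adrenergic receptor gene Adra2c (r = 0.984) and Akap12 (r = 0.982), which encodes a kinase scaffold. Grm2 did not pass (log2 change -0.21, adjusted p = 0.333 in limma), while Adra2c (-0.40) and Akap12 (-0.86) did. Contused values of X67108_at (36.2) and Adra2c (53.5 and 50.1) were set to the floor before the correlation. The arrays fall into 2 groups, so any gene that differs between them in the same direction tends to correlate highly. Of the 3955 genes, 316 had an r above 0.9 with Ntrk2 M55291_at and 114 with Bdnf X67108_at.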

How the data were processed

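Gene expression was measured on 6 one-colour arrays, 3 per group, grouped by sample title. The table deposited by the authors holds 1 intensity per probe set and array, read as linear from the values themselves, with 21 to 32 values per array below 0. The steps of summarising probes, background correction and scaling are not given in the sources used here. The trimmed means of the arrays (2% off each end) ran from 209 to 228, within a 10% limit, so no scaling was added. There were 0 columns of other samples in it.

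Genes were named through the array's annotation, with other symbols updated to GRCr8 through the gene identifier. Of 8799 probe sets, 59 controls were left out, which left 8740, of which 7006 carry 1 gene. Values were floored at 61.6 (the pooled 25th percentile) and transformed to log2, and 6705 probe sets were tested. Fold changes near the floor are understated. Changes were fitted with limma 3.58.1 in R 4.3.3 (lmFit, eBayes with an intensity trend, two-sided, no covariates, 4 residual degrees of freedom). Standard errors and 95% intervals come from that fit. The number of arrays limits the precision, since arrays have no counts behind them. An exact permutation test of 3 against 3 arrays cannot reach the threshold, so none was used.

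The procedure was tested on simulated arrays with changes placed only in probe sets well above the floor. That test does not cover calls near the floor, such as Bdnf X67108_at. Python 3.11.15 (pandas 2.3.3, matplotlib 3.10.9) made tables and plots. The members, the gene lists and the processing were chosen with earlier results of these data known. Named genes are all member probe sets, pathway genes past the threshold, the brightest gene of a role with no call, and the 3 genes most like each called member. Marker genes, Il6st and the dimmer probe sets of Akt2, Bex3, Fos, Gfra1, Ntf4 and Sos1 were named after their values were seen. Alternatives changed the floor, the offset, the filter, the scaling, the intensity trend and the replicate block, or left out 1 array. Listed genes without a probe set of their own are not analysed here.

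The median signal of an array was 122 to 127, with 73.1% to 76.0% of its probe sets above the floor. Log2 signals correlated at 0.958 to 0.977 within groups and at 0.910 to 0.932 between groups.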

Additional observations from a re-analysis of the deposited data

How the results depend on the processing

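The fall of Ntrk2 M55291_at kept its direction under all 15 alternatives, with log2 changes of -1.56 to -1.11 when 1 array was left out and of -1.29 to -0.79 under the others. It failed the threshold only without the filter on dim probe sets (log2 change -1.29, adjusted p = 0.0568). That setting adds 1529 probe sets set to the floor on all arrays, which have no spread, and 662 of all probe sets then passed, against 1165 as reported. Of the member probe sets, 2 passed as reported, 1 with the 10th percentile as floor, 1 with the 50th, 0 without the filter, and 1 to 2 when 1 array was left out. Bdnf X67108_at was lost in 5 of the 6 fits with 1 array left out. Over all probe sets, 659 to 1260 passed when 1 array was left out, with the lowest counts without uninjured array 3 (659) and contused array 2 (723). Of the pathway genes, 7 passed as reported, 3 without the filter and 3 to 7 when 1 array was left out. Without the filter Pcsk2, Nfkbia, Plat and Rhoa lost their calls (adjusted p = 0.0582, 0.0908, 0.111 and 0.153).

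Among members that did not pass, the sign turned for Ntrk3 S60953_s_at with quantile normalization (-0.025) and for Ret rc_AA859878_at with arrays scaled to 1 trimmed mean (0.022). With 1 array left out, log2 changes ran from -0.027 to 0.15 for Bdnf S76799_at, -0.015 to 0.18 for Ntf3 M34643_at, -0.0084 to 0.35 for Gdnf, -0.083 to 0.13 for Ntrk3 S60953_s_at and -0.089 to 0.074 for Ret rc_AA859878_at. Of the 11, 10 passed under none of the alternatives in which they were tested, the exception being Ngfr U25650_f_at.

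With the replicate number as a block, 2 member probe sets, 8 pathway genes and 1200 of all probe sets passed, and Ntrk2 M55291_at had an adjusted p of 0.00195. Deviations of same-numbered arrays from their group means correlated at 0.04, 0.22 and -0.24, and those of other pairs at -0.27 to 0.27. With 3 arrays per group these correlations constrain each other, so they cannot decide whether a shared number marks a pairing. The sample titles do not say. Signal below the floor on all arrays leaves 5 of the 7 Bdnf probe sets and the second probe sets of Ntrk2 and Ntrk3 without a measure of change.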
